A study of Mus musculus with 15 samples.

Results

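The Wnt pathway genes described here are 53 of the 35880 gene symbols in the expression table of the series. They were chosen by name, with earlier results of these data known: every numbered Wnt ligand, Frizzled receptor, Dickkopf and secreted Frizzled-related protein, together with *Wif1*, the co-receptors *Lrp5* and *Lrp6*, the R-spondin receptor *Lgr4*, the β-catenin gene *Ctnnb1*, *Apc*, *Axin1*, the 4 TCF/LEF factors and the feedback genes *Axin2*, *Nkd1*, *Nkd2*, *Rnf43* and *Znrf3*. The samples were cultures of the mouse Lewis lung carcinoma line LL2 that carries a luciferase (LL2/Luc2). Each of 5 lines was sequenced in 3 biologic replicates, 15 samples in all. LL2 WT is the unedited parental line. *KEAP1* KO #1, #2 and #3 are 3 clones edited with a guide against *Keap1*, and *NRF2* KO is 1 clone edited with a guide against *Nfe2l2*, the gene of NRF2. Each edited line was grown from a single cell that had received a plasmid with Cas9 and GFP, whereas the parental line was not cloned, so that in each edited line the effect of the edit and that of being 1 clone, with what its founder cell carried, cannot be told apart. All lines were grown in the same serum-containing medium.

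Wnt proteins are secreted ligands that bind Frizzled receptors. With the co-receptors LRP5 and LRP6 they halt a destruction complex built on Axin and APC, β-catenin then accumulates, and TCF/LEF factors turn on targets such as *Axin2*. Dickkopf proteins block the co-receptors, secreted Frizzled-related proteins and WIF1 bind the ligands, and ZNRF3 and RNF43 remove Frizzleds from the cell surface. Other Wnts, with Wnt5a as the best-known example, act through receptors such as ROR2 on cell polarity and movement without β-catenin. KEAP1 is the adaptor that leads NRF2, the transcription factor of the antioxidant response, to degradation. In lung development *Wnt7b* is a product of the airway epithelium, and *Axin2* and *Lef1* are common readouts of β-catenin signaling.

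In what follows the 3 *KEAP1* KO lines are also called clone #1, clone #2 and clone #3. Levels are given in CPM, the reads of a gene scaled to a total that all samples share, and always in the order of replicates 1, 2 and 3. At the average sequencing depth stated for the study, 3 reads equal 0.1 CPM, which served as a floor. The tests used limma on log2(CPM + 0.1) for the 14652 genes whose values over the samples added up to 3 CPM or more. A gene is described as called, that is, as having risen or fallen, when its p adjusted over those genes was under 0.05 and its log2 fold change was over 1 in size. A fold change on this scale understates the change of a gene with a low level. The 4 comparisons against LL2 WT share the same 3 parental samples.

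The targeted genes were checked first. *Keap1* averaged 23.0 ± 1.03 CPM in the parental cells (SD, n = 3), 11.8 ± 0.889 CPM in clone #1, 5.53 ± 1.57 CPM in clone #2, 5.58 ± 1.59 CPM in clone #3 and 22.7 ± 1.78 CPM in *NRF2* KO. *Nfe2l2* averaged 186 ± 19.6 CPM in the parental cells and was lower in all 4 edited lines, with 96.4 ± 8.39, 123 ± 1.23 and 116 ± 5.73 CPM in clones #1, #2 and #3 and 119 ± 24.0 CPM in *NRF2* KO. Of the markers of other cell types, the macrophage gene *Adgre1* and the club cell gene *Scgb1a1* were at 0 in all lines. *Epcam* and *Cdh1* were near 0 as well, whereas *Krt8*, *Krt18* and *Vim* were abundant in every line. The mesenchymal list of 9 genes, led by *Vim*, summed to between 3766 and 6012 CPM in the parental cells, to between 1543 and 2059 CPM over the 3 clones and to between 3313 and 4712 CPM in *NRF2* KO. In each clone *Vim*, *Col1a1*, *Col1a2*, *Col3a1*, *Pdgfra* and *Lum* averaged lower than in the parental cells and *Thy1* higher. *Pdgfrb* averaged higher in clone #1 and *Dcn* in clone #3, and both were lower in the other clones. The macrophage list of 6 genes, led by *Cd68*, summed to between 3.03 and 5.30 CPM in the parental cells. It summed to between 5.64 and 37.4 CPM over the clones and to between 3.66 and 5.80 CPM in *NRF2* KO. Its genes did not move together: in each clone *Cd68* averaged higher than in the parental cells and *Lyz2* lower. In *NRF2* KO the mean of *Lyz2* was higher than in the parental cells and came close to that of *Cd68*. The 5 lung epithelial genes summed to at most 1.18 CPM in any sample. The endothelial list of 4 genes, mostly *Pecam1*, summed to between 2.48 and 3.70 CPM in the parental cells, 2.81 and 4.85 CPM in clone #1, 5.16 and 6.69 CPM in clone #2, 5.35 and 6.09 CPM in clone #3 and 4.08 and 7.49 CPM in *NRF2* KO. The part of these genes in the results was not tested. In bulk samples such as these, fewer cells that express a gene and less RNA per cell cannot be told apart. Replicate 3 held the highest value of its line for 16 to 22 of the 27 Wnt members that passed the filter, and for 41.6% to 56.0% of all genes tested. The part of replicate 3 in the results was not tested beyond a fit with it as a batch term, in which no call of a named Wnt member changed.

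Promoter sequence is shown for *Dkk2* and *Lef1*, which changed in all 3 clones, and for the called members in which a motif was found. RefSeq promoters of build GRCm38.p6 were found for 36 of the 53 members. None was found for the called members *Wnt5a*, *Wnt7b*, *Fzd2*, *Fzd6*, *Fzd8* and *Lrp5*, so these were not searched. The 250 bases before each start were searched on both strands for the TCF/LEF core CTTTGAT or CTTTGAA and for the core of the antioxidant response element, TGACNNNGC, to which NRF2 binds with a small MAF partner. The TCF/LEF cores differ in their last letter only, and neither holds the other motif. The 250 bases before *Dkk2* (chr3:132085042-132085291, plus strand), the gene with the largest change, and before the first of 4 starts of *Lef1* (chr3:131110047-131110296, plus strand), the member that rose in all 3 clones, hold none of the motifs. The same windows of *Wnt10b*, *Fzd1*, *Fzd4*, *Fzd7* and *Axin2* and of the other starts of *Lef1* hold none either and are not printed. The first bases at the 4 starts of *Lef1*, and at those of *Fzd1* and *Fzd7*, were not found in an annotated transcript. The GENCODE gene of *Lef1* begins at 131110471, beyond the printed window. For these genes the lack of a motif thus holds for the RefSeq starts only. The 250 bases before *Fzd5* (chr1:64737751-64738000, minus strand) hold the antioxidant response core, in capitals, 235 to 227 bases before the start. All sequences read 5′ to 3′ on the strand of the gene.
Dkk2: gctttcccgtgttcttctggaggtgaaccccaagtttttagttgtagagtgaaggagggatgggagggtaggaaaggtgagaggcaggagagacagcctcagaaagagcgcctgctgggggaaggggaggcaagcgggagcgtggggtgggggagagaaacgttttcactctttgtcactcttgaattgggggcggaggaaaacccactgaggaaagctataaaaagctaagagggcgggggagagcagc
Lef1: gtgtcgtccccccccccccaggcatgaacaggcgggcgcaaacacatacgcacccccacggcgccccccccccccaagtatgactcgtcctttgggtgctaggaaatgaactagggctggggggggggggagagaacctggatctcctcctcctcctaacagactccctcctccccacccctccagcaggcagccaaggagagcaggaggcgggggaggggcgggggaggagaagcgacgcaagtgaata
Fzd5: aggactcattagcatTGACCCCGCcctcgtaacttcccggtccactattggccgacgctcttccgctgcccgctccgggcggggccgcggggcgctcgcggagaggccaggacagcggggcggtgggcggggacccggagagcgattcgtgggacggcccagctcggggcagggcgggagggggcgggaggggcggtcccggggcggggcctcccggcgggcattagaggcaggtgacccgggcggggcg

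In 2 further members the results turned on, 30 bases around the match are shown, with the motif in capitals. *Dkk1* (chromosome 19) holds CTTTGAA 117 to 111 bases before its RefSeq start, with 169 of the 250 bases inside the GENCODE gene, and *Tcf7l1* (chromosome 6) holds the antioxidant response core on the opposite strand, 40 to 32 bases before the start, with 209 of the 250 bases inside the gene.
Dkk1: ctcctcccaaagCTTTGAAatcccatcccg
Tcf7l1: cacagagccacGCCCTGTCAaaactttgtc
The antioxidant response core was present in 8 of the 46 member promoters and in 3338 of all 32851 promoters. A TCF/LEF core was present in 3 of the 46 and in 2457 of all, or 7.48%. A match of this kind describes the letters only, and binding was not measured.

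Of the 53 members, 27 passed the filter on low values. These were 5 of 19 Wnt ligands, 8 of 10 Frizzleds, all 3 co-receptors including *Lgr4*, 2 of 9 secreted antagonists, all 3 genes of β-catenin and its destruction complex, all 4 TCF/LEF factors and 2 of 5 feedback genes. The ligands that passed were *Wnt5a*, *Wnt7b*, *Wnt9a*, *Wnt10b* and *Wnt11*, and the antagonists were *Dkk1* and *Dkk2*. Per kilobase of the longest annotated transcript, the ligand with the highest level in LL2 WT was *Wnt7b* (12.6 CPM per kb, with *Wnt5a* next at 0.702). With the median transcript length these levels were 13.7 and 3.93 CPM per kb. *Fzd6* led the Frizzleds under both lengths (3.02 and 17.4 CPM per kb), *Dkk2* the antagonists (24.7 CPM per kb), *Tcf7l1* the TCF/LEF factors (8.03 and 34.2) and *Ctnnb1* all members (108 and 491).

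The 26 members that did not pass were *Wnt1*, *Wnt2*, *Wnt2b*, *Wnt3*, *Wnt3a*, *Wnt4*, *Wnt5b*, *Wnt6*, *Wnt7a*, *Wnt8a*, *Wnt8b*, *Wnt9b*, *Wnt10a*, *Wnt16*, *Fzd9*, *Fzd10*, *Dkk3*, *Dkk4*, *Sfrp1*, *Sfrp2*, *Sfrp4*, *Sfrp5*, *Wif1*, *Nkd1*, *Nkd2* and *Rnf43*. *Wnt3a*, *Wnt10a*, *Fzd10* and *Sfrp2* were at 0 in every sample, 16 of the 26 stayed at or under the floor throughout, and the highest value of any was 0.491 CPM (*Fzd9*). The members nearest the filter were *Axin2* inside it, with a sum of 3.2 CPM, and *Rnf43* outside it, with 2.58 CPM. For members that passed only because 1 line is high, among them *Dkk1* and *Wnt11*, the filter favored a difference from that line. The counts over the 27 thus describe the members and test nothing.

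**Figure D1:**
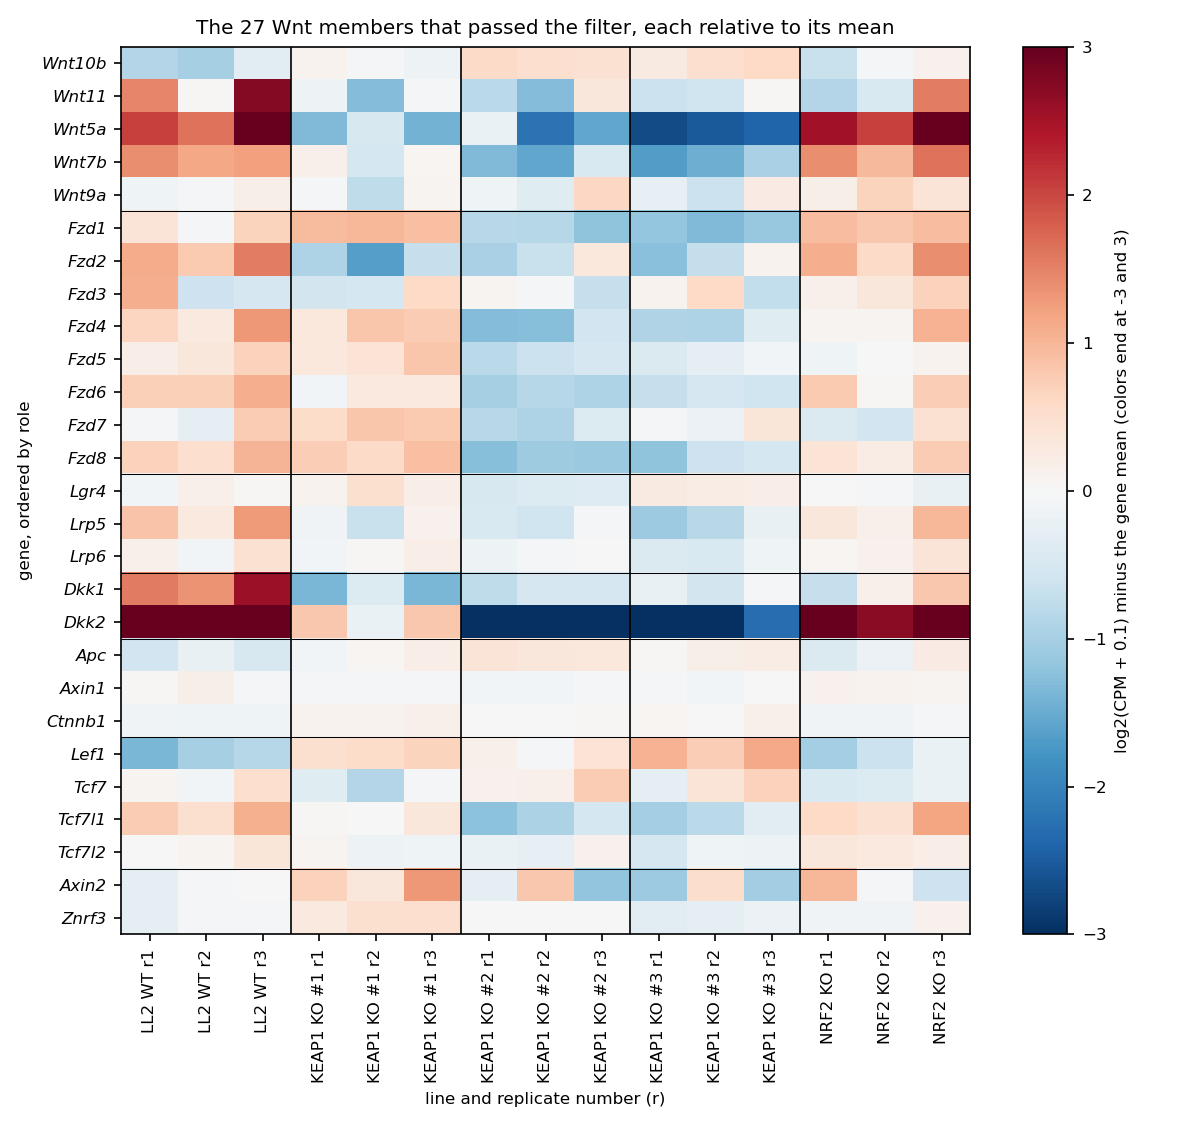
Heat map of the 27 Wnt members that passed the filter (rows, ordered by role and separated by lines) in the 15 samples (columns). Color shows log2(CPM + 0.1) minus the mean of the gene over the samples, and colors end at -3 and 3. *Wnt5a* is high in LL2 WT and *NRF2* KO and low in the 3 clones. *Dkk2* is high in LL2 WT and *NRF2* KO, near or above its mean in clone #1 and low in clones #2 and #3. Most Frizzleds are lower in clones #2 and #3 than in clone #1.

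In clone #1, 7 of the 27 members were called (8.54% of all genes tested were called). *Dkk1*, *Dkk2*, *Fzd2*, *Lrp5*, *Wnt5a* and *Wnt7b* fell (6 members; 3.99% of all genes fell) and *Lef1* rose (1 member; 4.55% of all genes rose). In clone #2, 14 were called (13.7% of all genes), 12 lower (7.75%) and 2 higher (5.94%). In clone #3, 13 were called (13.4% of all genes), 11 lower (7.34%) and 2 higher (6.09%). The 7 members called in clone #1 were also called in the other two clones, in the same direction. *Fzd1*, *Fzd4*, *Fzd6*, *Fzd8* and *Tcf7l1* fell and *Wnt10b* rose in clone #2 and #3, and *Fzd5* fell in clone #2. In *NRF2* KO no member was called by limma (0.464% of all genes were, 0.0887% higher and 0.375% lower). An unadjusted p under 0.05 was found for 4 of the 27 (*Dkk1*, *Fzd1*, *Fzd5* and *Wnt10b*) and for 1641 of all 14652 genes tested. The median log2 fold change of the 27 members was −0.12, −0.86, −0.52 and 0.02 in clone #1, #2, #3 and *NRF2* KO, and that of all genes tested was 0.11, 0.03, 0.02 and 0.04. The samples did not overlap with LL2 WT for 16, 20, 19 and 5 members, and for 37.0%, 42.0%, 40.0% and 13.2% of all genes. Rescaling by the median ratio moved the median of all genes in clone #1 from 0.11 to 0.0052, and no call of a member against LL2 WT changed with it. With 0.5 CPM added before the log, all calls lost kept an adjusted p under 0.05 and fell under the size asked for. Against LL2 WT these were *Lrp5* in clone #1 (−0.99), *Fzd1* (−0.71), *Fzd5* (−0.99), *Fzd8* (−0.98) and *Lef1* (0.78) in clone #2, and *Wnt10b* (0.96), *Fzd1* (−0.81) and *Fzd8* (−0.84) in clone #3. The call of *Lrp5* in clone #1 was also lost without a filter on low values (adjusted p = 0.0572) and in a fit of only the lines compared (adjusted p = 0.0653).

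Among the ligands, *Wnt7b* and *Wnt5a* fell in all 3 clones and *Wnt10b* rose in 2 of them. *Wnt7b*, a ligand that signals mainly through β-catenin (chromosome 15 of GRCm38, 85535437 to 85582473; all positions are of this build), stood at 47.1, 40.1 and 41.7 CPM in the parental cells and at 47.1, 35.2 and 55.5 CPM in *NRF2* KO. It was at 19.9, 12.4 and 18.4 CPM in clone #1, at 7.04, 5.94 and 13.0 CPM in clone #2 and at 5.47, 6.41 and 9.10 CPM in clone #3. All 9 samples of the clones lay below every sample of the other two lines. The difference on the log2 scale was −1.37 (SE 0.29, adjusted p = 0.00443 from limma) in clone #1, −2.38 (adjusted p = 5.05e-05) in #2 and −2.63 (adjusted p = 2e-05) in #3. In *NRF2* KO it was 0.07 with a 95% confidence interval from −0.54 to 0.69.

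*Wnt5a*, the ligand best known for signaling without β-catenin (chromosome 14, 28504750 to 28527448), stood at 3.65, 2.69 and 8.43 CPM in the parental cells and at 5.04, 3.61 and 9.09 CPM in *NRF2* KO. It was at 0.259, 0.548 and 0.235 CPM in clone #1 and at 0.679, 0.0925 and 0.206 CPM in clone #2. In clone #3 all samples lay under the floor, with 0.0393, 0.0568 and 0.0696 CPM. Here too every sample of the clones lay below every sample of the other two lines. The mean in clone #3 was at least 49.2-fold lower than in LL2 WT when set against the floor. Its log2 fold change was −3.39 (SE 0.54, adjusted p = 0.000754) in clone #1, −3.64 (adjusted p = 0.000254) in #2 and, as a fitted value that depends on the 0.1 added, −4.85 (adjusted p = 2.36e-05) in #3. In *NRF2* KO it was 0.32 (95% confidence interval −0.84 to 1.49).

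*Wnt10b*, another ligand of the β-catenin branch (chromosome 15, 98770712 to 98778150), moved the other way. It was at 0.953, 0.869 and 1.43 CPM in the parental cells and at 1.98, 1.80 and 1.65 CPM in clone #1. It was at 2.80, 2.63 and 2.54 CPM in clone #2 and at 2.23, 2.63 and 2.82 CPM in clone #3. In *NRF2* KO it was at 1.12, 1.77 and 2.00 CPM, so that the lowest *NRF2* KO sample lay within the range of LL2 WT. It rose by 1.25 on the log2 scale (SE 0.24, adjusted p = 0.00159) in clone #2 and by 1.19 (adjusted p = 0.00207) in clone #3. The values of 0.72 (adjusted p = 0.0447) in clone #1 and, for *NRF2* KO, 0.54 (adjusted p = 0.419) were not called. *Wnt9a* and *Wnt11* stayed under 1.6 CPM in every sample and were called in none of the 8 comparisons made. The log2 fold changes of *Wnt11* were −1.92, −2.02 and −1.83 in clone #1, #2 and #3 and −1.35 in *NRF2* KO. Their adjusted p-values from limma were 0.0861, 0.0593, 0.0847 and 0.562. *Wnt11* passed the filter through its LL2 WT values, so these differences describe its values and test nothing.

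The secreted antagonists showed the largest change of all members. *Dkk2* (chromosome 3, 132085292 to 132180304) belongs to the Dickkopf family that binds LRP5 and LRP6, and it can block or, in some settings, weakly activate the pathway. It was at 78.8, 55.6 and 140.3 CPM in the parental cells and at 69.4, 43.8 and 104 CPM in *NRF2* KO. It was at 11.6, 5.72 and 11.6 CPM in clone #1. It was at 0.220, 0.197 and 0.521 CPM in clone #2 and at 0.252, 0.458 and 1.27 CPM in clone #3. No sample of one of these 3 levels overlapped with another. Against the parental line, it differed on the log2 scale by −3.20 (SE 0.52, adjusted p = 0.000829) in clone #1, −7.77 (adjusted p = 2.97e-07) in #2 and −7.04 (adjusted p = 7.04e-07) in #3. These correspond to levels 9.20-fold, 219-fold and 132-fold lower on the scale with 0.1 CPM added. The value in *NRF2* KO was −0.32 (95% confidence interval −1.44 to 0.80).

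*Dkk1*, the founding Dickkopf antagonist and itself a β-catenin target in many cells (chromosome 19, 30545863 to 30549665), was far less abundant, at 0.662, 0.560 and 1.45 CPM in the parental cells. It was at 0, 0.0961 and 0 CPM in clone #1 and at 0.0526, 0.0826 and 0.0827 CPM in clone #2, all under the floor. It was at 0.123, 0.0770 and 0.152 CPM in clone #3 and at 0.0600, 0.19 and 0.354 CPM in *NRF2* KO. All 12 samples of the edited lines thus lay below every LL2 WT sample. *Dkk1* was at least 8.89-fold lower than in LL2 WT in clone #1 and in clone #2. The fitted log2 fold changes were −2.88 (SE 0.47, adjusted p = 0.000946), −2.42 (adjusted p = 0.00193) and −2.09 (adjusted p = 0.00467) in clone #1, #2 and #3. With a sum of 3.94 CPM over the samples, *Dkk1* passed the filter through its LL2 WT values, and did not pass without replicate 3 of LL2 WT. The filter thus favored a difference from LL2 WT, and the calls of *Dkk1* describe its values and test nothing. In *NRF2* KO the value of −1.73 (95% confidence interval −2.76 to −0.71) had an unadjusted p of 0.00287 and an adjusted p of 0.162, and it was not called. The other 7 antagonists, *Dkk3*, *Dkk4*, *Sfrp1*, *Sfrp2*, *Sfrp4*, *Sfrp5* and *Wif1*, did not pass the filter.

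**Figure D2:**
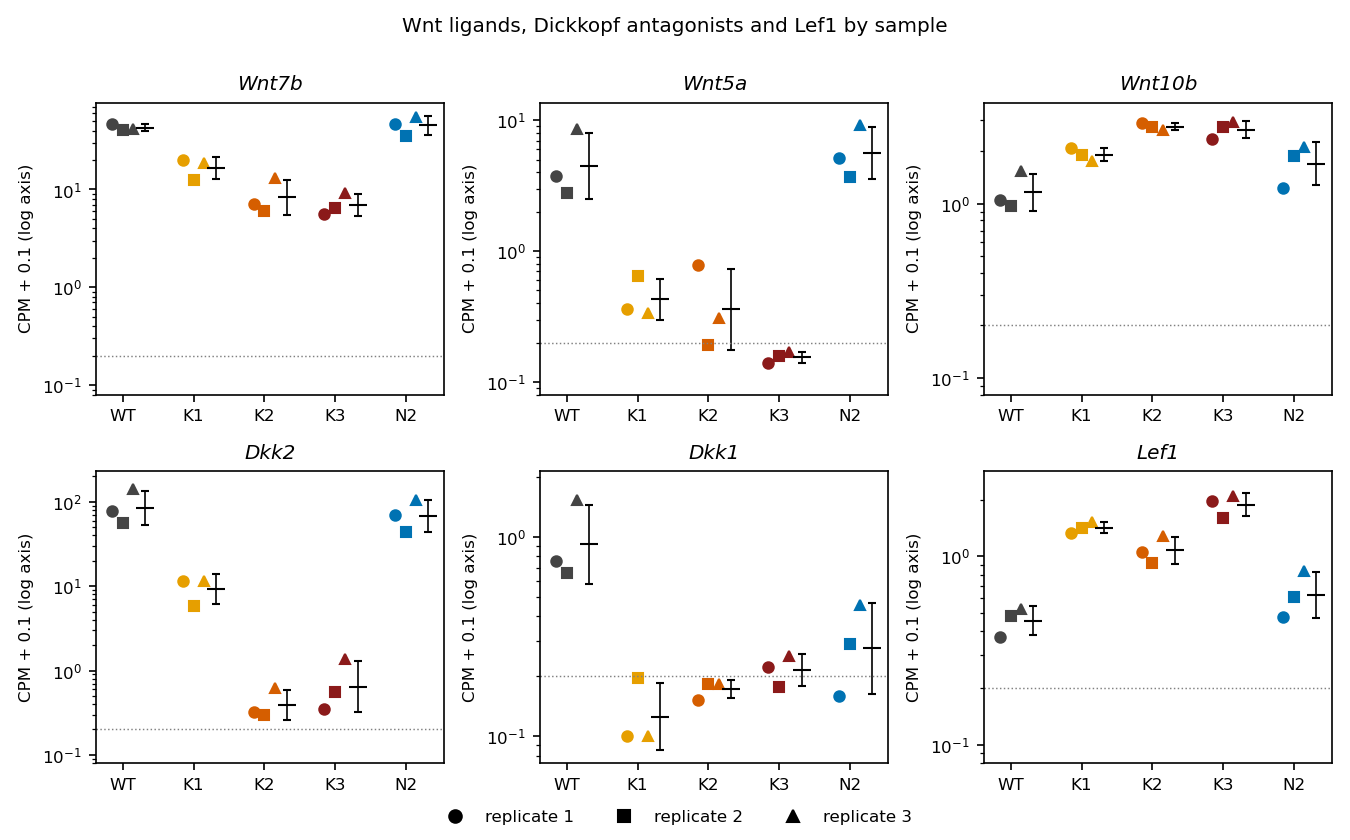
CPM + 0.1 (log axis) of 3 ligands, both Dickkopf genes and *Lef1* in each sample. WT is LL2 WT, K1 to K3 are clone #1 to #3 and N2 is *NRF2* KO. Symbols are replicates, bars are the mean and SD of the 3 log2 values, and the dotted line is the floor of 0.1 CPM. *Dkk2* falls from 55.6 CPM or more in LL2 WT to 11.6 CPM or less in K1 and 1.27 CPM or less in K2 and K3, while *Lef1* and *Wnt10b* are higher in the clones.

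Most Frizzled receptors were lower in clones #2 and #3 than in the parental line. 6 of the 8 tested were called lower in clone #2, 5 in clone #3 and 1 in clone #1, and none was called higher. *Fzd2* was the receptor that fell in all 3 clones. *Fzd2* (chromosome 11, 102604396 to 102608058) binds Wnt5a among other ligands. It was at 3.90, 3.1 and 5.30 CPM in the parental cells and at 3.85, 2.67 and 4.78 CPM in *NRF2* KO. It was at 0.886, 0.487 and 1.05 CPM in clone #1, at 0.852, 1.08 and 2.21 CPM in clone #2 and at 0.679, 1.03 and 1.89 CPM in clone #3. Every sample of the clones lay below every sample of LL2 WT and *NRF2* KO. The log2 fold change was −2.23 (SE 0.42, adjusted p = 0.00219) in #1, −1.58 (adjusted p = 0.0118) in #2 and −1.77 (adjusted p = 0.00616) in #3. Without replicate 1 of clone #2 the value in that clone was −1.31 with an adjusted p of 0.0580, which is not called.

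*Fzd1* and *Fzd7* share a subfamily with *Fzd2*, and the 3 genes are given side by side. *Fzd1* (chromosome 5, 4753839 to 4758035) stood at 0.678, 0.471 and 0.844 CPM in the parental cells and at 1.06, 1.08 and 1.02 CPM in clone #1. It was at 0.238, 0.231 and 0.157 CPM in clone #2, at 0.168, 0.139 and 0.172 CPM in clone #3 and at 1.03, 0.945 and 1.04 CPM in *NRF2* KO. Clone #1 and *NRF2* KO thus lay above LL2 WT, and clone #2 and #3 below it, without overlap. It fell by 1.29 on the log2 scale (SE 0.26, adjusted p = 0.00225) in #2 and by 1.53 (adjusted p = 0.000650) in #3, whereas the values of 0.63 in #1 (adjusted p = 0.0978) and, for *NRF2* KO, 0.56 (adjusted p = 0.446) were not called. *Fzd7* (chromosome 1, 59482424 to 59486955), a receptor often raised in tumors, stood at 5.80, 4.82 and 10.23 CPM in the parental cells. It was at 8.77, 10.8 and 10.32 CPM in clone #1, at 3.29, 3.11 and 4.48 CPM in clone #2, at 5.77, 5.31 and 7.65 CPM in clone #3 and at 4.39, 3.95 and 8.17 CPM in *NRF2* KO. It was not called against LL2 WT in any line, with −0.86 in clone #2 (adjusted p = 0.0447), but clone #2 was called without replicate 2 of LL2 WT (−1.08) or without its own replicate 3 (−1.02). Transcripts of *Fzd1*, *Fzd2* and *Fzd7* share 1.61%, 1.90% and 0.777% of their 31-base stretches with other genes, chiefly each other.

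*Fzd5* and *Fzd8* form another pair. *Fzd5* (chromosome 1, 64730558 to 64737751) stood at 6.19, 6.79 and 8.72 CPM in the parental cells and at 6.70, 7.19 and 9.57 CPM in clone #1. It was at 3.03, 3.39 and 3.72 CPM in clone #2, at 3.92, 4.37 and 5.06 CPM in clone #3 and at 4.87, 5.36 and 5.78 CPM in *NRF2* KO. The last 3 lines lay below LL2 WT without overlap. It fell by 1.07 (SE 0.18, adjusted p = 0.000646) in clone #2. That value was −0.93 without replicate 3 of LL2 WT and −0.99 without replicate 1 of clone #2, both under the size asked for, as was the value of −0.92 with quantile normalization. Neither −0.68 in clone #3 (adjusted p = 0.0112) nor −0.42 for *NRF2* KO (adjusted p = 0.404) was called. *Fzd8* (chromosome 18, 9212163 to 9218136) stood at 0.706, 0.604 and 0.917 CPM in the parental cells and at 0.732, 0.636 and 0.834 CPM in clone #1. It was just above the floor in clone #2, at 0.104, 0.137 and 0.132 CPM, and at 0.116, 0.225 and 0.243 CPM in clone #3. In *NRF2* KO it was at 0.557, 0.484 and 0.741 CPM and overlapped with LL2 WT. Its log2 fold change was −1.89 (SE 0.29, adjusted p = 0.000333) in #2 and −1.53 (adjusted p = 0.00154) in #3, and 0.00 to 2 decimals in #1.

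*Fzd4*, which is also the receptor of Norrin (chromosome 7, 89404355 to 89413134), stood at 1.74, 1.33 and 2.77 CPM in the parental cells and at 1.36, 1.98 and 1.88 CPM in clone #1. It was at 0.373, 0.379 and 0.687 CPM in clone #2, at 0.527, 0.512 and 0.807 CPM in clone #3 and at 1.14, 1.14 and 2.31 CPM in *NRF2* KO. It fell by 1.80 (SE 0.35, adjusted p = 0.00191) in #2 and by 1.48 (adjusted p = 0.00643) in #3. *Fzd6*, a receptor with a role in planar polarity (chromosome 15, 39006034 to 39038188), stood at 11.8, 11.8 and 15.5 CPM in the parental cells and at 6.81, 8.79 and 8.90 CPM in clone #1. It was at 3.53, 3.92 and 3.72 CPM in clone #2, at 4.43, 5.01 and 4.71 CPM in clone #3 and at 12.5, 7.40 and 12.08 CPM in *NRF2* KO. The 3 clones lay below LL2 WT without overlap, and clone #1 lay between. It fell by 1.77 (SE 0.20, adjusted p = 2.54e-05) in #2 and by 1.44 (adjusted p = 0.000128) in #3, and the value of −0.67 in #1 (adjusted p = 0.0271) was not called. *Fzd3* stayed at or under 0.707 CPM and was called nowhere.

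**Figure D3:**
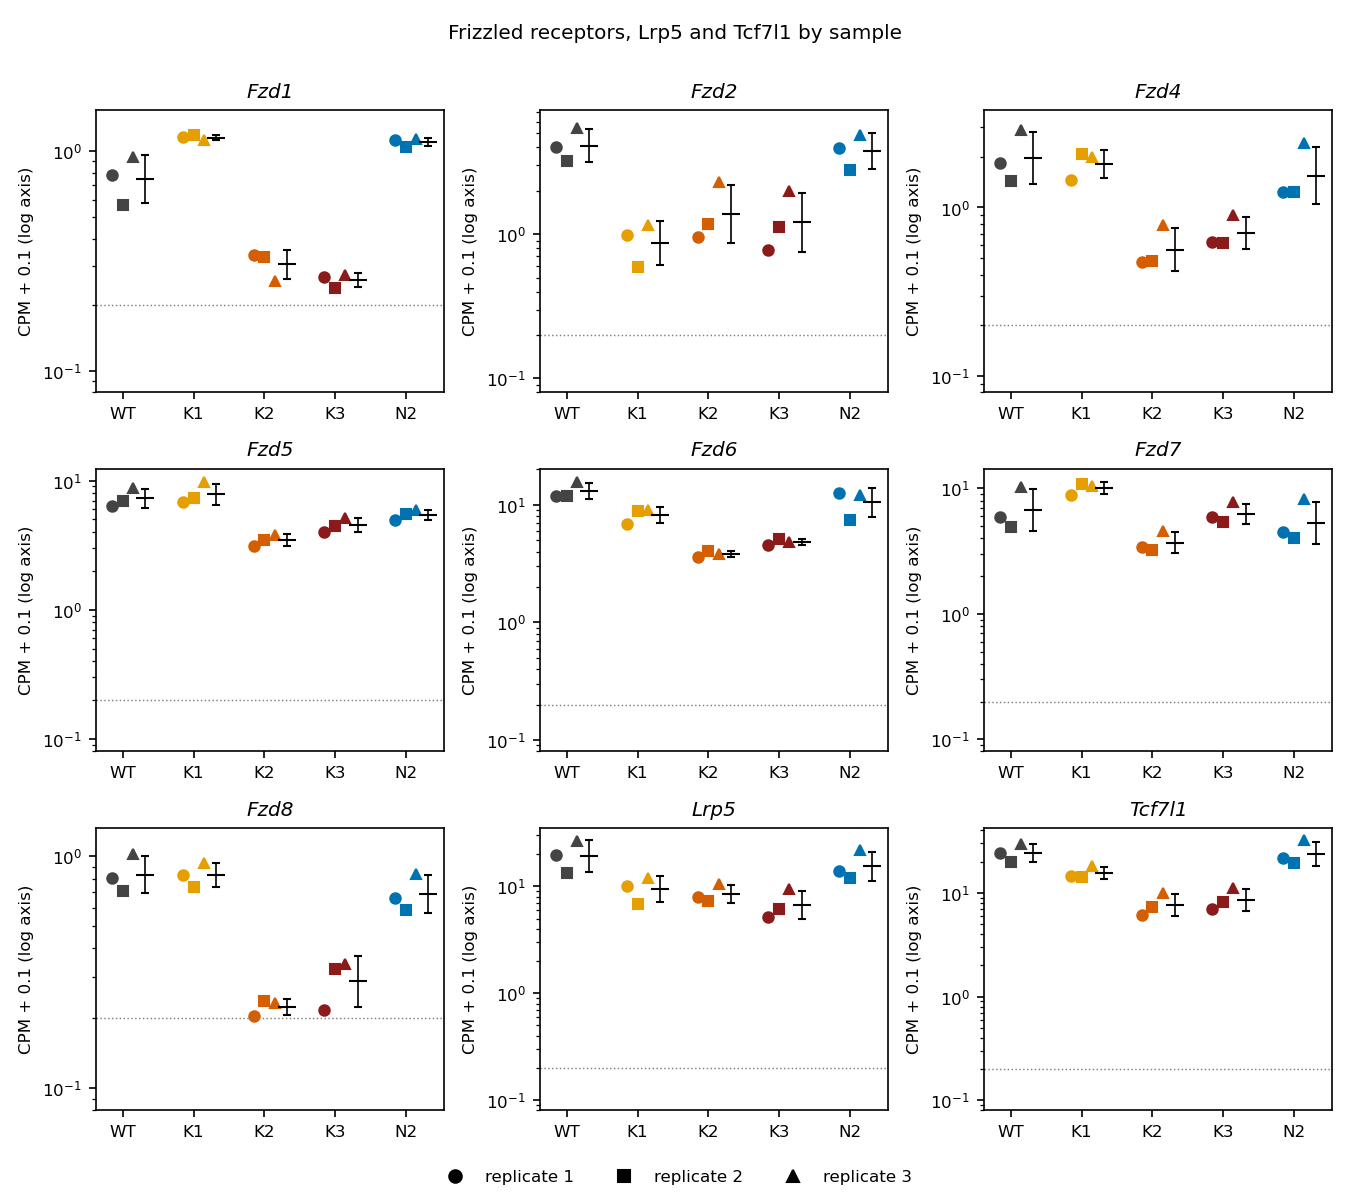
CPM + 0.1 (log axis) of 7 Frizzled receptors, *Lrp5* and *Tcf7l1* in each sample, with LL2 WT as WT, clone #1 to #3 as K1 to K3 and *NRF2* KO as N2. Symbols are replicates, bars are the mean and SD of the 3 log2 values, and the dotted line is the floor. *Fzd1*, *Fzd4* and *Fzd8* are at or near the parental level or above it in K1 and lower in K2 and K3, whereas *Fzd2* and *Lrp5* are lower in all 3 clones.

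Of the co-receptors, *Lrp5* fell and *Lrp6* was not called. *Lrp5* (chromosome 19, 3584828 to 3686564) stood at 19.6, 13.3 and 26.4 CPM in the parental cells and at 13.7, 12.0 and 21.6 CPM in *NRF2* KO. It was at 10.06, 6.78 and 11.8 CPM in clone #1, at 7.81, 7.16 and 10.5 CPM in clone #2 and at 5.07, 6.04 and 9.26 CPM in clone #3. No sample of a *KEAP1* KO clone reached the lowest sample of LL2 WT, although replicate 3 was the highest in each line. Against the parental line, it differed on the log2 scale by −1.02 (SE 0.31, adjusted p = 0.0320) in #1, −1.17 (adjusted p = 0.0124) in #2 and −1.52 (adjusted p = 0.00262) in #3. The call in #1 was lost in 4 of 6 fits with 1 sample left out: without replicate 1 of LL2 WT (−1.0, adjusted p = 0.0810), its replicate 3 (−0.79, adjusted p = 0.123), or replicate 1 (−1.08, adjusted p = 0.0597) or 2 (−0.80, adjusted p = 0.139) of clone #1. The call in #2 was lost without replicate 3 of LL2 WT (−0.94, adjusted p = 0.0544) and without replicate 2 of clone #2 (−1.06, adjusted p = 0.0520). *Lrp6* averaged 25.1 ± 4.69 CPM in the parental cells and 22.8 ± 2.29, 20.8 ± 1.05 and 17.4 ± 2.22 CPM in clone #1, #2 and #3, with log2 fold changes of −0.12, −0.25 and −0.52. *Lgr4*, which binds the R-spondins that strengthen Wnt signals, ranged from 1.76 to 3.49 CPM.

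β-Catenin and the destruction complex gave no call. *Ctnnb1* (chromosome 9, 120929216 to 120960507) stood at 394, 389 and 389 CPM in the parental cells, at 455, 456 and 472 CPM in clone #1, at 423, 427 and 435 CPM in clone #2, at 442, 418 and 474 CPM in clone #3 and at 397, 396 and 416 CPM in *NRF2* KO. All edited lines lay above LL2 WT without overlap, by 0.24, 0.13, 0.19 and 0.05 on the log2 scale, and the widest 95% confidence limit, in clone #1, was 0.38. None of these was called. *Apc*, the scaffold that presents β-catenin for degradation, averaged 15.1 ± 2.03 CPM in the parental cells and 21.2 ± 2.16, 25.7 ± 0.631 and 22.4 ± 1.40 CPM in the 3 clones. Its log2 fold changes of 0.49, 0.77 and 0.57 had adjusted p-values of 0.0360, 0.00234 and 0.0134 and stayed under the size asked for. *Axin1*, the limiting scaffold of the complex, ranged from 38.6 to 46.5 CPM over all samples.

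The TCF/LEF factors split. *Lef1*, which carries β-catenin to target genes and is often a target itself (chromosome 3, 131110471 to 131224356), rose in all 3 clones from a low level. It was at 0.272, 0.384 and 0.428 CPM in the parental cells and at 0.375, 0.511 and 0.733 CPM in *NRF2* KO. It was at 1.23, 1.32 and 1.42 CPM in clone #1, at 0.959, 0.819 and 1.18 CPM in clone #2 and at 1.87, 1.5 and 2.00 CPM in clone #3. Every sample of the clones lay above every sample of the other two lines. The difference on the log2 scale was 1.64 (SE 0.26, adjusted p = 0.000790) in #1, 1.24 (adjusted p = 0.00327) in #2 and 2.04 (adjusted p = 8.07e-05) in #3, and 0.45 (95% confidence interval −0.12 to 1.02) in *NRF2* KO. Antisense transcripts of other genes match 14.5% of the 31-base stretches of *Lef1*, 17.2% of those of *Fzd5* and 13.2% of those of *Ctnnb1*, and whether the counting used strand is not given in the sources used here, so a share of their reads may be uncertain.

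*Tcf7l1*, the family member that mostly represses target genes in the absence of a signal (chromosome 6, 72626378 to 72789254), fell in clone #2 and #3. It was at 23.9, 19.8 and 29.5 CPM in the parental cells and at 21.5, 19.3 and 32.1 CPM in *NRF2* KO. It was at 14.4, 13.9 and 17.9 CPM in clone #1, at 5.98, 7.21 and 9.83 CPM in clone #2 and at 6.90, 7.97 and 11.1 CPM in clone #3. Clone #1 lay between, without overlap with any other line. The log2 fold change was −1.67 (SE 0.24, adjusted p = 0.000229) in #2 and −1.50 (adjusted p = 0.000501) in #3, and the value of −0.65 in #1 (adjusted p = 0.0701) was not called. *Tcf7* averaged 1.57 to 2.76 CPM in the 5 lines and *Tcf7l2* 9.85 to 14.3 CPM, and neither was called.

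**Figure D4:**
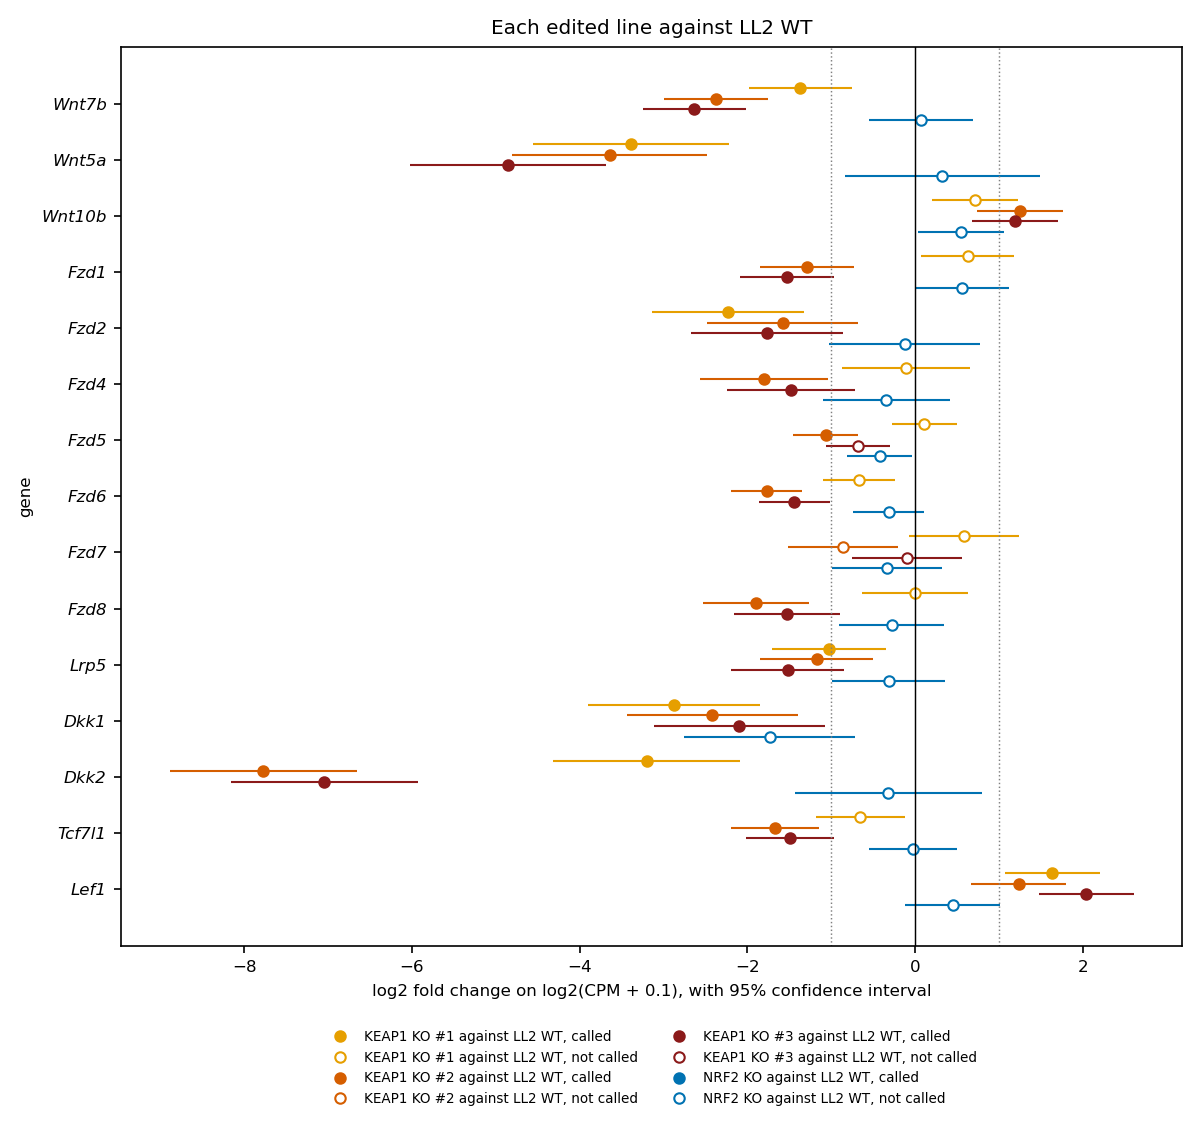
Log2 fold change on log2(CPM + 0.1) of the 15 members called in at least 1 comparison (rows), for each edited line against LL2 WT (colors). Points are estimates, lines are 95% confidence intervals, filled points are called, and dotted lines mark a log2 fold change of 1 in either direction. The *NRF2* KO points are all open, and *Dkk2* in clone #2 and #3, at −7.77 and −7.04, lies farthest from 0.

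No feedback gene was called. *Axin2*, the usual readout of active β-catenin signaling, was at 0.122, 0.163 and 0.175 CPM in the parental cells and at or under 0.571 CPM in every sample. It was at 0.342, 0.248 and 0.571 CPM in clone #1, above LL2 WT without overlap, but the log2 fold change of 0.89 had a 95% confidence interval from −0.41 to 2.2 and was not called. With a sum of 3.2 CPM over the samples, *Axin2* passed the filter narrowly, and clone #1 was its highest line. The filter thus favored a difference of clone #1, and the lack of overlap describes the values and tests nothing. The SE of 0.60 for *Axin2* was larger than that of *Lef1* (0.26). *Lef1* was called from a higher level, with a mean of 0.361 CPM in LL2 WT against 0.154 CPM for *Axin2*. *Znrf3* averaged 6.70 ± 0.623 CPM in the parental cells and 9.87 ± 0.787, 7.28 ± 0.0775 and 6.05 ± 0.324 CPM in clone #1, #2 and #3. Its value of 0.55 in clone #1 (adjusted p = 0.00579) was under the size asked for. *Nkd1*, *Nkd2* and *Rnf43* did not pass the filter.

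The clones were then compared with each other. In clone #2 against #1, 9 of the 27 members were called (4.58% of all genes), and all of them were lower in #2 (2.79% of all genes were lower and 1.79% higher). 6 were Frizzleds: *Fzd1* (−1.91, SE 0.26, adjusted p = 0.000500), *Fzd8* (−1.89), *Fzd4* (−1.69), *Fzd7* (−1.45), *Fzd5* (−1.18) and *Fzd6* (−1.10). The others were *Dkk2* (−4.57, SE 0.52, adjusted p = 0.000132), *Tcf7l1* (−1.02, adjusted p = 0.0176) and *Wnt7b* (−1.01, adjusted p = 0.0387). The call of *Wnt7b* was lost without replicate 1 (−0.88) or 3 (−0.93) of clone #1 and without replicate 1 (−0.90) or 2 (−0.78) of clone #2. The call of *Tcf7l1* was lost without replicate 3 of clone #1 (−0.91) and without replicate 1 (−0.85) or 2 (−0.99) of clone #2. With median ratio scaling both fell under the size asked for, at −0.92 and −0.93. Quantile normalization ended these calls (−0.87 and −0.87) and those of *Fzd5* (−0.99) and *Fzd6* (−0.91), and 0.5 CPM added ended those of *Wnt7b* (−0.97), *Tcf7l1* (−0.98) and *Fzd8* (−0.98). *Wnt7b* was also lost without a filter (adjusted p = 0.0669) and with only the lines compared (adjusted p = 0.0765).

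In clone #3 against #1, 5 members were called (4.63% of all genes), again all lower (2.6% of all genes were lower and 2.03% higher). These were *Dkk2* (−3.84, SE 0.52, adjusted p = 0.000499), *Fzd1* (−2.16, adjusted p = 0.000217), *Fzd8* (−1.52, adjusted p = 0.00480), *Fzd4* (−1.37, adjusted p = 0.0229) and *Wnt7b* (−1.26, adjusted p = 0.0121). Without replicate 1 of clone #3 the count was 3. The calls of *Fzd4* (−1.29, adjusted p = 0.0813) and *Wnt7b* (−1.10, adjusted p = 0.0582) were lost there. *Fzd4* was also lost without replicate 2 (−1.28) or 3 (−1.31) of clone #1 or replicate 2 of clone #3 (−1.27), and *Wnt7b* without replicate 1 of clone #1 (−1.13). With 0.5 CPM added *Fzd8* was at −0.83, under the size asked for. *Dkk1*, *Fzd2*, *Lrp5*, *Lef1* and *Wnt5a*, which were called in all 3 clones against LL2 WT, were not called between clone #1 and either other clone. The 95% confidence intervals of their differences between #2 and #1 were −0.56 to 1.48, −0.25 to 1.56, −0.83 to 0.53, −0.97 to 0.17 and −1.42 to 0.91. Between #3 and #1 they were −0.24 to 1.80, −0.44 to 1.37, −1.17 to 0.18, −0.16 to 0.97 and −2.63 to −0.30. The last of these, for *Wnt5a*, leaves out 0, with a difference of −1.47 and an adjusted p of 0.0998 from limma.

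Between clone #3 and clone #2 limma called none of the 27 members (0.485% of all genes, 0.259% higher and 0.225% lower in #3). 5 of the 27 members had an unadjusted p under 0.05, as did 1204 of all 14652 genes tested. The 5 were *Fzd7*, *Lef1*, *Lgr4*, *Wnt5a* and *Znrf3*. The value for *Lef1* was 0.80 with a 95% confidence interval from 0.24 to 1.37, and that for *Dkk2* was 0.73 with an interval from −0.39 to 1.85. Samples with the same replicate number deviated together in these 2 clones, and those of replicates 2 and 3 did so in every pair of lines. With the replicate block the count of members remained 0, and that of all genes was 135 in place of 71.

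**Figure D5:**
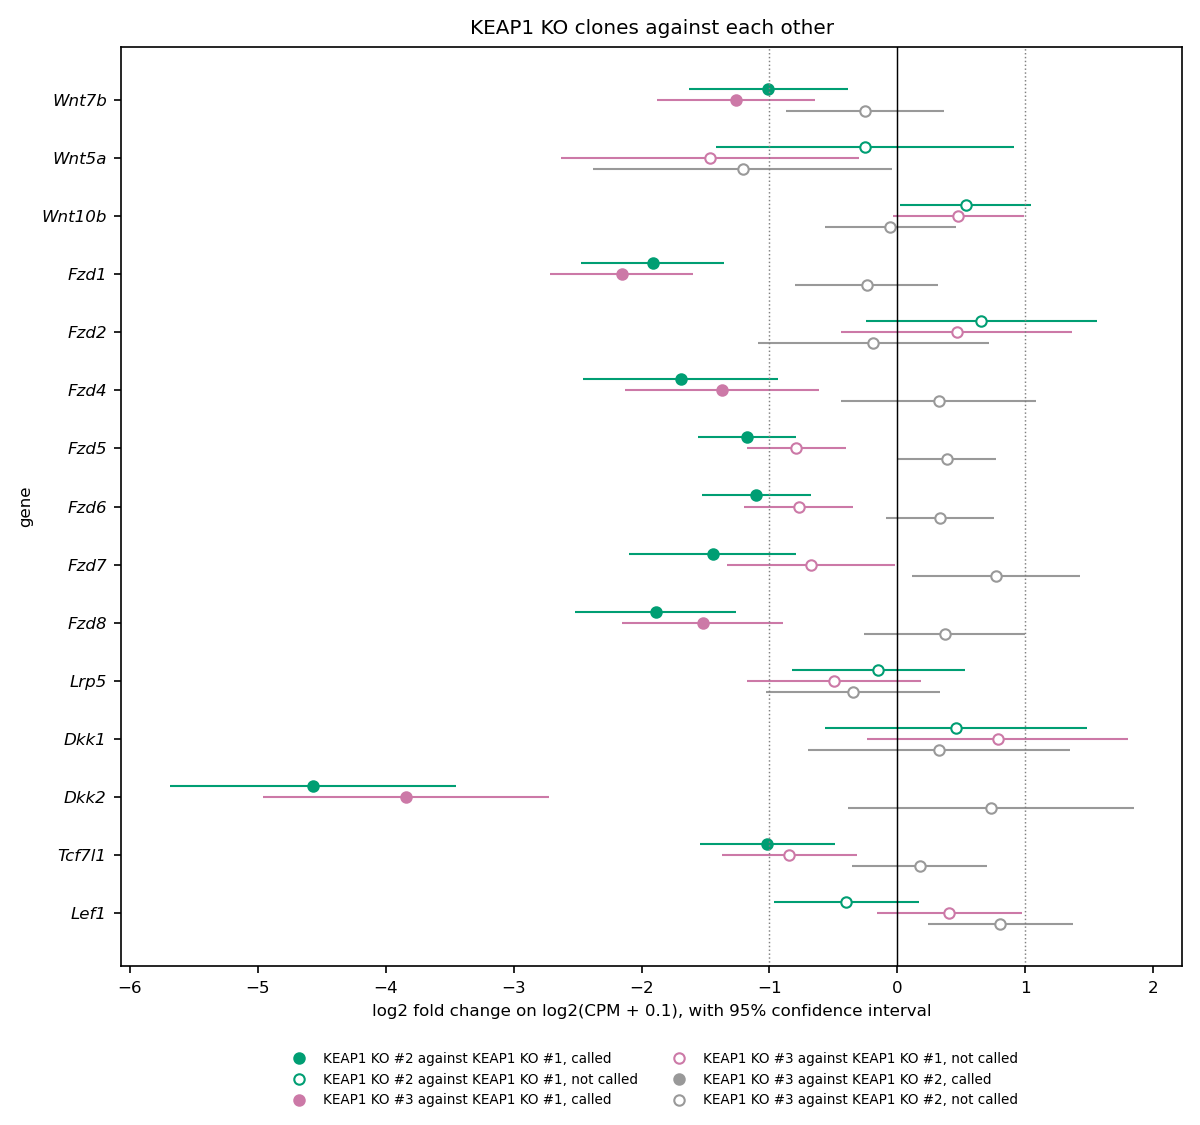
Log2 fold change on log2(CPM + 0.1) between *KEAP1* KO clones for the same 15 members (rows), with #2 against #1, #3 against #1 and #3 against #2 in separate colors. Points are estimates, lines are 95% confidence intervals, filled points are called, and dotted lines mark a log2 fold change of 1 in either direction. The Frizzleds other than *Fzd2*, with *Dkk2*, *Tcf7l1* and *Wnt7b*, lie left of 0 in both comparisons with #1, and no point of #3 against #2 is filled.

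The mean of the 3 clones was also compared with *NRF2* KO, which leaves the parental line out. 7 members were called (9.94% of all genes), 6 lower (4.75%) and 1 higher (5.19%). The lower members were *Dkk2* (log2 fold change −5.69, SE 0.42, adjusted p = 5.78e-07), *Wnt5a* (−4.28, adjusted p = 1.09e-05), *Wnt7b* (−2.2, adjusted p = 1.51e-05), *Fzd2* (−1.74, adjusted p = 0.00212), *Fzd1* (−1.29, adjusted p = 0.000541) and *Tcf7l1* (−1.25, adjusted p = 0.000444). *Lef1* was higher by 1.19 (SE 0.21, adjusted p = 0.00115), and by 0.99, short of the size asked for, without replicate 1 of *NRF2* KO. With 0.5 CPM added *Lef1* was at 0.83 and *Fzd1* at −0.74, and neither was called. The mean joins clones that differ: *Fzd1* was at 1.02 to 1.08 CPM in clone #1, where *NRF2* KO was at 0.945 to 1.04 CPM. *Dkk1*, called in each clone against LL2 WT, was not called here (−0.73, 95% confidence interval −1.56 to 0.11).

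Other genes of the pathway were taken from a list of 92, of which 91 were in the table and 64 passed the filter. Of these, 4 rose and 9 fell in clone #1, 4 rose and 18 fell in #2, and 5 rose and 19 fell in #3, whereas 0 rose and 2 fell in *NRF2* KO. Their median log2 fold changes were −0.11, −0.32, −0.33 and 0.01. The shares of all genes called are those given for each comparison above. The genes that rose outside those described next were *Draxin* in clones #2 and #3 and *Rspo3* in clone #3, named after their values were seen. Several receptors and membrane partners fell in all 3 clones. *Ror2*, a receptor of Wnt5a, averaged 3.02 ± 0.665 CPM in the parental cells, 0.983 ± 0.279, 0.310 ± 0.147 and 0.938 ± 0.285 CPM in clone #1, #2 and #3 and 2.33 ± 0.48 CPM in *NRF2* KO. *Adgra2*, which lets cells respond to Wnt7 ligands, averaged 66.0 ± 25.8 CPM in the parental cells, 18.2 ± 4.98, 1.93 ± 1.42 and 3.27 ± 2.02 CPM in the 3 clones and 50.9 ± 24.4 CPM in *NRF2* KO. *Kremen1*, a receptor of Dickkopf proteins, had log2 fold changes of −1.27, −1.80 and −1.95 in clones #1, #2 and #3, and *Ptk7*, a co-receptor of the polarity branch, of −1.52, −1.96 and −3.16.

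Inhibitors and polarity genes of that list moved in both directions. *Apcdd1*, a membrane inhibitor of Wnt signaling and a target of it, averaged 129 ± 22.3 CPM in the parental cells and 38.4 ± 6.58, 33.4 ± 7.59 and 37.6 ± 5.49 CPM in the 3 clones. *Cxxc4*, which binds Dishevelled, fell in all 3 clones (−1.55, −1.47 and −1.97 on the log2 scale), as did *Vangl2*, a core polarity gene (−1.11, −2.62 and −2.43). *Prickle1*, another polarity gene, rose by 1.19, 1.31 and 1.12, and *Dact2*, which also binds Dishevelled, by 1.43, 1.97 and 1.71. Among genes known as targets, *Snai2*, a factor of mesenchymal cells, fell (−1.37, −4.02 and −3.23), *Id2* rose by 1.27, 1.55 and 1.63, and *Myc* and *Ccnd1* were not called in any line. *Cdx2*, an intestinal homeobox gene, averaged 0.708 ± 0.0622 CPM in the parental cells and 6.0 ± 0.558 CPM in clone #1 (log2 fold change 2.91, adjusted p = 1.78e-05). It was listed at 0 in all samples of clone #2 and averaged 0.162 ± 0.0405 CPM in #3 and 0.0341 ± 0.0356 CPM in *NRF2* KO, all called lower. *Frzb*, a secreted Frizzled-related protein whose symbol falls outside the numbered family, averaged 18.0 ± 13.1 CPM in the parental cells and 16.7 ± 6.96 CPM in clone #1. It fell in clone #2 (0.173 ± 0.0568 CPM, log2 fold change −5.84, adjusted p = 2.65e-06), in clone #3 (0.420 ± 0.114 CPM, −4.92, adjusted p = 1.08e-05) and in *NRF2* KO (2.17 ± 1.29 CPM, −2.92, adjusted p = 0.0158).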

How the data were processed

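RNA of 5 LL2 lines, 3 samples each, was prepared with a KAPA mRNA kit and sequenced as described by the labels. The authors deposited CPM values for each gene and sample, from Kallisto and scaled so that samples share a total. The study's methods name GRCm38.p6 transcripts, whereas the submitters' processing notes name kallisto, bcl2fastq 1.9.0 and GRCm39. Coordinates here are those of GENCODE vM21 (GRCm38) and promoters those of RefSeq (GRCm38.p6), matched by symbol. The values are fractional and sum to 998941 to 999306 CPM per sample, so the depth of each sample is unknown and no counting interval was possible. The floor of 0.1 CPM (3 reads at the average depth of 30 M reads) is approximate. The 1 entry without a symbol (0.0214% to 0.0491% of the CPM of a sample) was left out.

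Of 35880 genes, the 14652 whose values added up to 3 CPM or more entered limma 3.58.1 (R 4.3.3) as log2(CPM + 0.1), with a mean per line in one model over the 15 samples, an empirical Bayes trend and Benjamini-Hochberg adjustment over all genes tested. The thresholds of a call were 0.05 for the adjusted p and 1 for the size of the log2 fold change. The study's own methods give the same filter and tool. The procedure was tested on simulated data. These had changes only in genes that were not low in LL2 WT, and they had no spread shared by replicates of equal number. The test thus does not cover genes as low as *Dkk1*, *Lef1*, *Fzd1* and *Fzd8*. Named were the members called in at least 1 of 8 comparisons, the member with the highest mean in each group, the targeted genes, and listed pathway genes called in all 3 *KEAP1* KO clones or in *NRF2* KO, while other members are given by their ranges. Members and lists were chosen with earlier results of these data known. Alternatives were other pseudocounts, filters and scalings, fits of only the lines compared, a replicate block, replicate 3 as a batch and leaving out each replicate. Whether replicates came from separate cultures beyond being called biologic is not given, so p-values measure the spread between these samples.

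The pairing of equal replicate numbers was checked over 11676 genes. The correlations of deviations from the line means ran from −0.0221 to 0.631, and all 3 were over 0.1 in 2 of the 10 pairs of lines, *KEAP1* KO #2 with #3 and *KEAP1* KO #3 with *NRF2* KO. Over the 10 pairs, they ran from 0.422 to 0.631 for replicate 3, from 0.126 to 0.529 for replicate 2 and from −0.0221 to 0.278 for replicate 1. Python 3.11.15 with pandas 2.3.3, numpy 2.4.6 and matplotlib 3.10.9 was used.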

Additional observations from a re-analysis of the deposited data

Results flagged for a closer look

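The *KEAP1* KO clones differed from each other in 14 results, each a called difference in limma between 2 clones, with 3 samples a clone. Each clone was grown from 1 cell, so the edit and the founder cell cannot be told apart in these differences. *KEAP1* KO #2 was lower than *KEAP1* KO #1 in *Dkk2* (log2 fold change −4.57), *Fzd1* (−1.91), *Fzd8* (−1.89), *Fzd4* (−1.69), *Fzd7* (−1.45), *Fzd5* (−1.18), *Fzd6* (−1.10), *Tcf7l1* (−1.02) and *Wnt7b* (−1.01). *KEAP1* KO #3 was lower than *KEAP1* KO #1 in *Dkk2* (−3.84), *Fzd1* (−2.16), *Fzd8* (−1.52), *Fzd4* (−1.37) and *Wnt7b* (−1.26). In the same comparisons *Keap1* itself averaged 11.8 CPM in *KEAP1* KO #1 against 5.53 and 5.58 CPM in the other two, and the part of that difference in these results was not tested.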

How the results depend on the processing

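Of 81 results for single members in a comparison, 81 kept their direction and their side of the threshold with 0.01 CPM added, with the replicate block and with replicate 3 as a batch, 79 without a filter and 78 with median ratio scaling. With 1 CPM added the members called numbered 4 in *KEAP1* KO #1, 7 in #2 and 8 in #3 against LL2 WT, and 2 each in #2 and #3 against #1. All 27 member calls lost there, and the 14 lost with 0.5 CPM added, kept an adjusted p of 0.0400 or less and fell under the size asked for, as a larger pseudocount shrinks the fold of low genes. Quantile normalization left 5 members called in #2 against #1. A mean of at least 1 CPM left 3 in #3 against #1, since *Fzd1* and *Fzd8* were not tested, and without a filter 1 was called in #3 against #2 (*Nkd2*). *Fzd5* in *KEAP1* KO #1 turned from 0.11 to −0.0019 with median ratio scaling and *Fzd8* from −0.0039 to 0.015 with quantile normalization.

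Leaving out 1 sample at a time, 5 to 8 members were called in *KEAP1* KO #1, 11 to 16 in #2, 12 to 14 in #3, 7 to 9 in #2 against #1, 3 to 6 in #3 against #1 and 6 to 9 in the mean of the clones against *NRF2* KO, and 0 in each fit of *NRF2* KO and of #3 against #2. Values that were not called and changed sign were *Fzd4* (−0.34 to 0.17), *Fzd5* (−0.044 to 0.25) and *Fzd8* (−0.12 to 0.14) in *KEAP1* KO #1, *Fzd7* in #3 (−0.32 to 0.22), and in *NRF2* KO *Wnt5a* (−0.033 to 0.79), *Wnt7b* (−0.074 to 0.25), *Fzd2* (−0.31 to 0.10), *Dkk2* (−0.63 to 0.041) and *Tcf7l1* (−0.24 to 0.12). Over all genes, 1 CPM added gave 784, 1275, 1303 and 44 calls in *KEAP1* KO #1, #2, #3 and *NRF2* KO in place of 1251, 2006, 1967 and 68, 384 and 394 in #2 and #3 against #1 in place of 671 and 679, and 804 in the mean of the clones against *NRF2* KO in place of 1457. In *NRF2* KO the count was 38 with a mean of at least 1 CPM, 4 with only the lines compared, 179 with the replicate block, 173 with replicate 3 as a batch and 29 to 87 with 1 sample left out. In #3 against #2 it was 39, 135 and 141 in place of 71 with only the lines compared, the block and the batch, and 42 to 62 with 1 sample left out, and in #2 against #1 it was 441 to 682 with 1 sample left out. The replicate block changed no call of a named member. The depth of each sample is unknown, so the counting error behind low values could not be given.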

Other observations

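The further pathway genes were also compared between the clones. In *KEAP1* KO #2 against #1, 7 of the 64 tested were lower (2.79% of all genes were), among them *Adgra2*, *Ror2*, *Snai2*, *Vangl2*, *Cdx2* and *Frzb*, and 2 were higher, *Draxin* and *Notum* (1.79% of all genes were). In *KEAP1* KO #3 against #1, 8 were lower (2.6% of all genes), with *Ptk7* in place of *Ror2* among the named genes, and the same 2 were higher (2.03% of all genes). These 2 were named after their values were seen. *Snai2* averaged 14.6 ± 1.42 CPM in *KEAP1* KO #1 (SD, n = 3), 2.31 ± 0.762 CPM in #2 and 3.97 ± 0.721 CPM in #3. In *KEAP1* KO #3 against #2, 1 of the 64 was called, *Cdx2*, which was higher in #3 (0.259% of all genes were).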
